A study of Mus musculus with 8 samples.

Results

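The 8 genes described here encode the coat proteins of caveolae, the protein of the endothelial stomatal and fenestral diaphragm, and surface proteins of endothelial cells that are often read beside them. They were *Plvap*, *Cav1*, *Cav2*, *Cavin1*, *Cavin2*, *Cavin3*, *Gpihbp1* and *Emcn*, picked by name from the 46517 genes of the count table (spike-in transcripts left out). The choice was made with their levels in these cells already known, so their levels across cell types are a description and were not tested. Single cells of dissociated, healthy adult mouse liver (8 weeks to 1 year of age, C57BL6/J background) had been sorted into multi-well plates and sequenced by Smart-seq2, a full-length method primed on poly-adenylated RNA. The deposited annotation put 3491 cells into 4 classes, which together with the labelled sex made 8 pools, 1 male and 1 female pool per class. The pools held 655 male and 451 female endothelial cells, 998 and 339 mesenchymal cells, 358 and 39 parenchymal cells (cholangiocytes and hepatocytes), and 255 and 396 immune cells.

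The mice were wild type or carried heterozygous fluorescent reporters (*Pdgfrb* GFP, *Pdgfra* H2bGFP, *Cspg4* dsRED, *Acta2* GFP, *Cldn5* GFP), singly or combined, and no group was treated. Endothelial cells had been gated by antibodies against CD31 and VE-Cadherin or by the *Cldn5* reporter, mesenchymal cells by the *Pdgfra*, *Pdgfrb* and *Acta2* reporters or an antibody against PDGFRA, cholangiocytes by EPCAM and Kupffer cells by CD68. Hepatocytes came from ungated living cells. The share of a cell type among the cells therefore follows the gates. The labels did not tie cells to single mice, and each of the 22 plates held cells of 1 sex. Sex and plate can therefore not be told apart, and the spread between pools and plates given here is not the spread between animals.

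Caveolae are small flask-shaped pits of the plasma membrane, abundant in endothelial and smooth muscle cells. Caveolin-1, encoded by *Cav1*, oligomerises in the membrane and recruits cavin-1, encoded by *Cavin1*, and loss of either protein removes caveolae from most non-muscle cells. Caveolin-2 joins caveolin-1 in hetero-oligomers, and cavin-2 and cavin-3 enter the coat through cavin-1. PLVAP forms the thin diaphragms that span caveolar necks and fenestrae of many capillaries, whereas the fenestrae of adult liver sinusoids are open and lack such diaphragms. GPIHBP1 carries lipoprotein lipase across capillary endothelium, and endomucin, encoded by *Emcn*, is a sialomucin of the luminal endothelial surface.

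In GRCm38 with GENCODE vM21 annotation, *Cav2* (chr6:17281185-17289115, plus strand) lies 17219 bases upstream of *Cav1* (chr6:17306335-17341452, plus strand). The others are unlinked, with *Plvap* at chr8:71497765-71511752 (minus), *Cavin1* at chr11:100956733-100970887 (minus), *Cavin2* at chr1:51289126-51302960 (plus), *Cavin3* at chr7:105480083-105482300 (minus), *Gpihbp1* at chr15:75596628-75599481 (plus) and *Emcn* at chr3:137341067-137432185 (plus). Smart-seq2 reads carry no strand, so reads from a gene and from a gene on the opposite strand cannot be told apart where their exons overlap. Annotated genes on the opposite strand overlapped the spans of 5 members. *Gm15581* spanned the whole of *Cav1* and *Cav2*, *9330175M20Rik* the whole of *Cavin2*, *Gtpbp3* overlapped *Plvap* by 1819 bases and *Gm45667* overlapped *Cavin3* by 374 bases. No member had an overlapping gene on its own strand.

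The promoter windows of members with a RefSeq entry are shown because neighbouring genes of the set had unlike patterns, as given below for *Cav1* and *Cav2*. Entries were found for 5 of the 8 members, and 4 windows of 239 bases, from 250 to 12 bases before the RefSeq start, lay before every annotated transcript of their gene. They are, in GRCm38.p6 and on the plus strand, chr6:17280935-17281173 for *Cav2*, chr6:17306085-17306323 for *Cav1*, chr1:51288876-51289114 for *Cavin2* and chr3:137340828-137341066 for *Emcn*. Capitals mark matches to the motifs searched.
Cav2: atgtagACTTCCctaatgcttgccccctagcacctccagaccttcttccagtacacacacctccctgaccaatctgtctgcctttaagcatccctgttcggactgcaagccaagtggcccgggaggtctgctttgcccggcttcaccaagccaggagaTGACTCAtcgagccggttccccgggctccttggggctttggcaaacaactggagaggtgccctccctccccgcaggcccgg
Cav1: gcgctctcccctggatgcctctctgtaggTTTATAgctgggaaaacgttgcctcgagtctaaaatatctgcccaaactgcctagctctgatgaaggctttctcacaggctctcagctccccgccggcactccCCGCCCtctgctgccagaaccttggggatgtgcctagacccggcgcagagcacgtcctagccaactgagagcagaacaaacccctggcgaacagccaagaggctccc
Cavin2: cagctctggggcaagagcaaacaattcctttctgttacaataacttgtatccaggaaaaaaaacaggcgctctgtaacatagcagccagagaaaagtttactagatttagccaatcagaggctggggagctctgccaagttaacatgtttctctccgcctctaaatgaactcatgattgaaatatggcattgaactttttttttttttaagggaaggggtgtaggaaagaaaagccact
Emcn: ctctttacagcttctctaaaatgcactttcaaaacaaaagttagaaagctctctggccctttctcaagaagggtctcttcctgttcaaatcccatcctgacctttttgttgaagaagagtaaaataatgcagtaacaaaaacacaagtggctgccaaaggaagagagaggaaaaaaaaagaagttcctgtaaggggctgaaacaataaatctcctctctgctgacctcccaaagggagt

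Motifs known from endothelial and smooth muscle promoters were searched on both strands. The *Cav2* window held GGAAGT, an ETS core, on the minus strand 244 bases before the start, as 18.6% of the 32851 RefSeq promoter windows of the same length do on either strand. It also held TGACTCA, an AP-1 site, on the plus strand 92 bases before the start (4.34% of windows). The *Cav1* window held TATAAA, the core promoter box, on the minus strand 221 bases before the start (12% of windows). It also held GGGCGG, an SP1 box, on the minus strand 118 bases before the start (31.2% of windows). AGATAA, a site of endothelial zinc finger factors, is in 9.71% of windows and was in none of the 4 shown. The CArG box of smooth muscle genes is in 1.43% of windows and was likewise in none of the 4, and the *Cavin2* and *Emcn* windows held no match to any of the motifs. The linked caveolin genes thus shared none of these short motifs in the windows shown.

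Counts per cell, of genes and spike-ins together, ran from 50042 to 1143895 with a median of 233696. Levels are given as CPM, the counts of a gene per 1000000 counts summed over the cells of a group, and a group entered where a pool held at least 3 of its cells. The female mesenchymal pool came from 1 plate, and the female parenchymal pool was small and shallow, with a median of 92554 such counts per cell. The deposited group Cont, 26 immune cells that the study calls contaminated, and the mesenchymal cluster #m14c, 9 cells, held endothelial transcripts. Their counts of *Kdr* were 985 and 746 CPM and of *Ptprb* 1087 and 1180 CPM. Leaving out both changed none of the counts of genes by class given next.

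All 8 genes had counts in every class, and they fell into 3 patterns. Both endothelial pools lay above the 6 other pools for *Plvap*, *Cav2*, *Cavin2*, *Gpihbp1* and *Emcn*, 5 of the 8 genes, where 11.2% of the 16914 genes with a mean of at least 1 CPM did so. Both mesenchymal pools lay above the rest for *Cavin1* and *Cavin3* (2 of 8, with 9.93% of all genes). No member was highest in both immune or both parenchymal pools (0 of 8 each, with 10.8% and 12.3% of all genes). *Cav1* met neither rule, since the endothelial and mesenchymal ranges overlapped across the sexes, although within each sex the mesenchymal pool was the highest. Since these classes were part of how the genes were chosen, nothing is read from these counts.

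**Figure D1:**
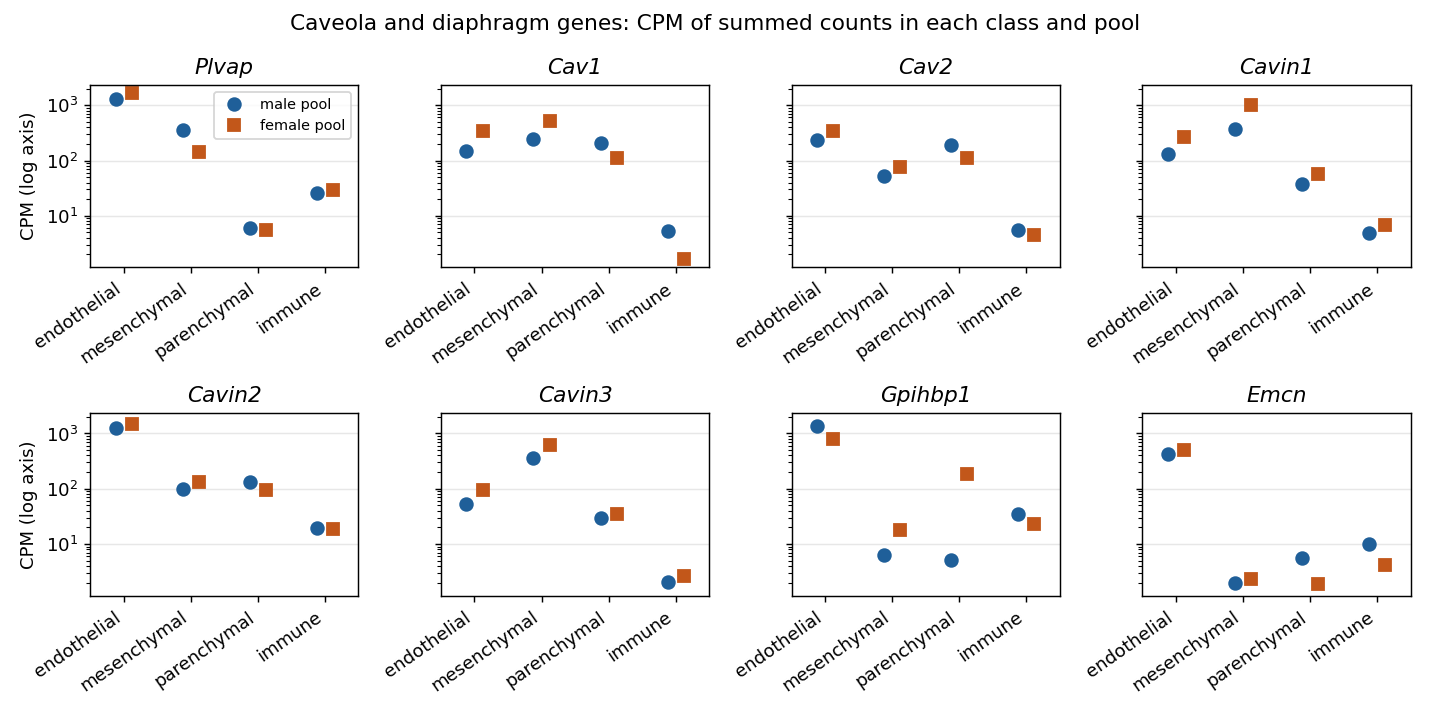
CPM of counts summed over the cells of each class (x axis, 4 classes) on a log axis, with 1 panel per gene, circles for male and squares for female pools. *Gpihbp1* and *Emcn* stand out in the endothelial pools, *Cavin1* and *Cavin3* are highest in the mesenchymal pools, and *Cav1* and *Cav2* also stand at 110 to 206 CPM in the parenchymal pools.

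Endothelial pools held 149 CPM (male) and 346 CPM (female) of *Cav1*, with 248 and 508 CPM in the mesenchymal pools, 206 and 110 CPM in the parenchymal pools, and 5.37 and 1.65 CPM in the immune pools. The male mesenchymal pool lay between both endothelial pools, but within each sex the mesenchymal pool was ahead of the endothelial one, by a log2 ratio of endothelial to mesenchymal cells of -0.74 (male) and -0.55 (female). *Cav2* was at 231 and 340 CPM in endothelial, 53.3 and 77.2 CPM in mesenchymal, 192 and 113 CPM in parenchymal, and 5.60 and 4.51 CPM in immune pools. Its endothelial lead over the next class, the parenchymal cells, was log2 0.27 in male and 1.59 in female pools. The linked caveolin genes thus differed in mesenchymal cells, where *Cav1* was at its highest class level in each sex and *Cav2* below its endothelial and parenchymal levels.

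*Cavin1*, whose product is the cavin that the other cavins need, was at 377 and 1006 CPM in the mesenchymal pools and at 133 and 264 CPM in the endothelial pools. It was at 37.2 and 57.3 CPM in parenchymal and 4.81 and 6.88 CPM in immune pools. *Cavin3* went further the same way, with 364 and 625 CPM in mesenchymal, 53.3 and 95.2 CPM in endothelial, 29.6 and 35.3 CPM in parenchymal, and 2.03 and 2.66 CPM in immune pools. *Cavin2* did the opposite. Its endothelial pools were at 1239 and 1486 CPM, against 98.6 and 134 CPM in mesenchymal, 134 and 94.9 CPM in parenchymal, and 19.2 and 18.8 CPM in immune pools, a lead over mesenchymal cells of log2 3.64 (male) and 3.46 (female).

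Endothelial pools held 1298 CPM (male) and 1647 CPM (female) of *Plvap*, which was at 356 and 143 CPM in mesenchymal, 5.99 and 5.63 CPM in parenchymal, and 26.3 and 28.9 CPM in immune pools. Its second class was thus mesenchymal, in both sexes. *Emcn* was at 429 and 503 CPM in endothelial pools and at most 10.2 CPM in any other pool. *Gpihbp1* was at 1348 and 798 CPM in endothelial, 6.48 and 18.2 CPM in mesenchymal, 35.5 and 22.7 CPM in immune, and 5.20 and 182 CPM in parenchymal pools. The female parenchymal value rested on 1 cell, which held 83.0% of that pool's *Gpihbp1* counts. The median cell there was at 31.5 CPM.

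Detection of a single count was a poor guide in these deep libraries. B cells, which should lack these proteins, held at least 1 count of *Plvap* in 86.0% of 57 cells and of *Gpihbp1* in 82.5%, at a median depth of 269490 counts without spike-ins, but at least 20 counts (the limit that the study used for a detected gene) in 1.75% for each. Hepatocytes likewise had a *Plvap* count in 46.3% of 203 cells and at least 20 counts in 0.985% (median depth 166736). In hepatic stellate cells (HSC; median depth 200214) the shares were 98.6% and 91.8%, and 97.3% after thinning each cell to 50000 counts. Shares of cells below therefore use the limit of 20 counts unless they say otherwise. Their intervals treat cells as independent draws, although cells share plates and mice, so they do not measure the spread between plates or animals. Polymerase chain reaction copies were not marked, so a count is not a molecule.

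Per kilobase of annotated exon, which allows a comparison between genes, sinusoidal endothelial cells (annotation Sinusoid_EC, 542 cells) held 609 CPM per kb of *Gpihbp1*, 308 of *Cavin2*, 244 of *Plvap*, 58.1 of *Emcn* and 53.5 of *Cav2*. The core coat genes were at the bottom, with 26.8 CPM per kb of *Cavin1*, 17.7 of *Cav1* and 2.17 of *Cavin3*. In arterial smooth muscle cells (artSMC, 237 cells) the order turned round. They held 613 CPM per kb of *Cavin3*, 414 of *Cavin1* and 331 of *Cav1*, but 10.97 of *Cavin2* and 10.03 of *Plvap*. The most abundant coat genes of these cell types thus differed.

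**Figure D2:**
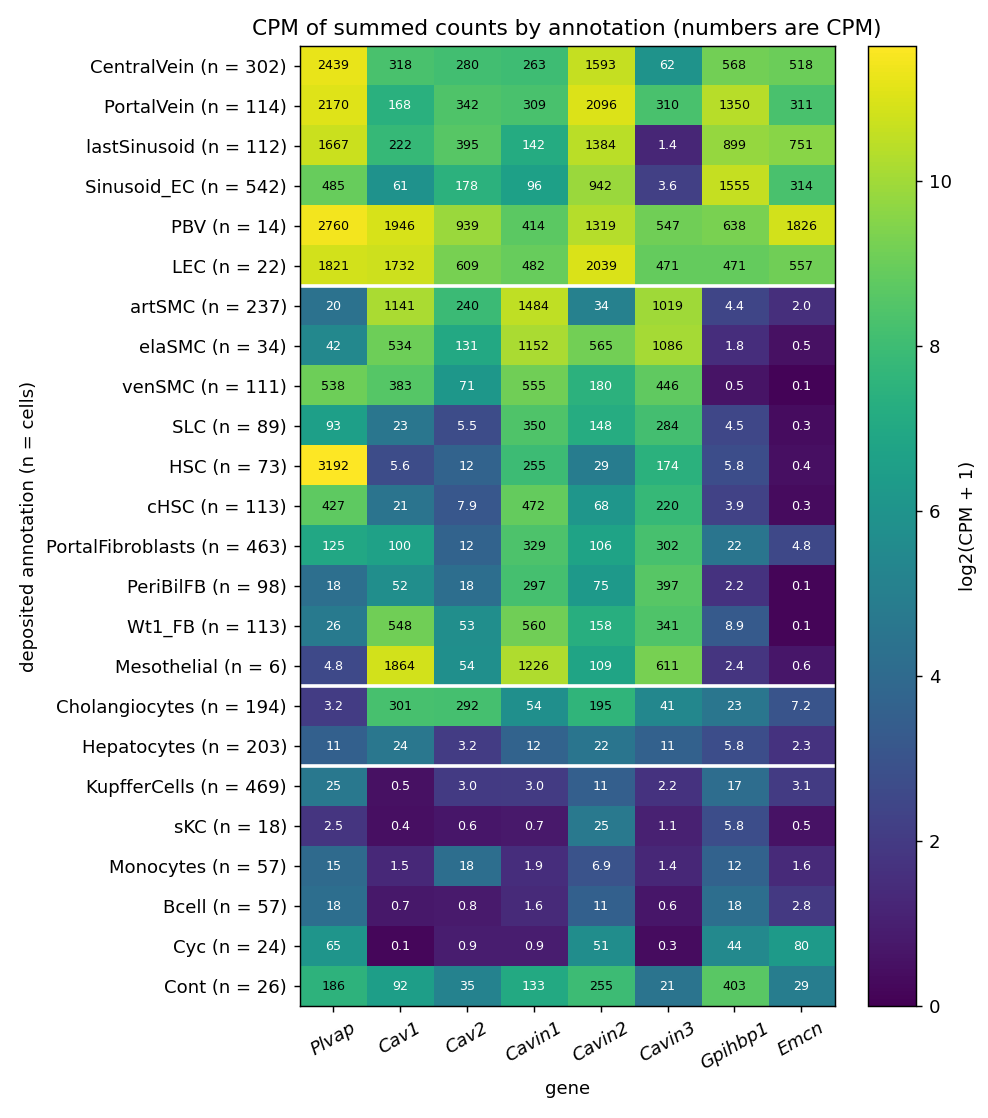
Rows are the 24 deposited annotations with their number of cells, columns are the 8 genes, and the number in each field is CPM over both sexes, coloured by log2(CPM + 1). White lines separate endothelial, mesenchymal, parenchymal and immune annotations, and the HSC row shows *Plvap* at 3192 CPM beside *Cav1* at 5.61 CPM and *Emcn* at 0.39 CPM.

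Among annotations, *Cav1* was highest in small groups at vessels and surfaces. These were PBV, the peribiliary vasculature of the study (14 cells, 1946 CPM), mesothelial cells (6 cells, 1864 CPM) and lymphatic endothelial cells (LEC, 22 cells, 1732 CPM). The LEC pools were far apart, at 488 and 2289 CPM, so these 3 groups do not differ beyond their spread. Arterial smooth muscle followed at 1141 CPM with pools from 990 to 1379 CPM, whose range lay above that of Wt1_FB, fibroblasts named for Wt1 (358 to 868 CPM). CentralVein endothelium was at 318 CPM, cholangiocytes at 301 CPM and PortalVein endothelium at 168 CPM. Sinusoid_EC held only 60.8 CPM (pools 53.8 and 62.3 CPM), HSC 5.61 CPM and Kupffer cells 0.45 CPM.

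In CentralVein cells *Cav1* counts were concentrated in few cells. The median cell had 6.88 CPM of *Cav1* while the highest 31 of 302 cells held 63.5% of the counts. For *Plvap* in the same cells the median was 2535 CPM and the highest 31 cells held 24.1%. Arterial smooth muscle was unlike this, with at least 20 counts of *Cav1* in 80.6% of 237 cells.

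The ratio of *Cav1* to *Cav2*, per kb, varied across the vasculature. It was 0.33 in Sinusoid_EC, 0.47 in PortalVein, 0.54 in lastSinusoid (cluster #e6 of the sinusoidal cells) and 1.10 in CentralVein cells. It was 2.01 in PBV, 2.75 in LEC, 3.94 in elaSMC, 4.60 in artSMC and 5.25 in venSMC (venous smooth muscle). Sinusoidal cells thus held more *Cav2* than *Cav1*, and mural cells the reverse. In cholangiocytes, where both genes stood well above the hepatocytes' 23.5 CPM (*Cav1*) and 3.19 CPM (*Cav2*), the ratio was 0.997. The CentralVein ratio lay on either side of 1 in the 2 pools, at 0.83 in male and 1.42 in female cells, and PortalVein and lastSinusoid changed places between the pools.

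*Cavin1* led in artSMC at 1484 CPM, with pools at 1074 and 1744 CPM. Mesothelial cells followed at 1226 CPM and elaSMC at 1152 CPM. *Cavin3* was highest in the same mural cells, at 1086 CPM in elaSMC (pools 1061 and 1092) and 1019 CPM in artSMC (902 and 1093), which overlapped each other and no other annotation with 2 pools. PortalVein cells held 310 CPM of *Cavin3*, CentralVein cells 61.6 CPM, and Sinusoid_EC and lastSinusoid cells 3.61 and 1.42 CPM. *Cavin2* was highest in PortalVein (2096 CPM) and LEC (2039 CPM), then CentralVein (1593 CPM, pools 1568 and 1618), and was still 942 CPM in Sinusoid_EC. Of the mural cells, elaSMC reached 565 CPM of *Cavin2* and artSMC 33.5 CPM, with ranges over pools that did not meet (484 to 886 CPM and 24.7 to 39.1 CPM).

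In artSMC, 176 of 237 cells (74.3%) held at least 20 counts of both *Cav1* and *Cavin1*, the pair that makes caveolae, and 167 of these held fewer than 20 counts of *Plvap*. The same pair was found in 50 of 302 CentralVein cells (16.6%), of which 48 also had *Plvap*. Only 11 of 542 Sinusoid_EC (2.03%) held the pair. In PortalVein cells it was 10 of 114 (8.77%), each with *Plvap*. Vessel endothelium with *Plvap* but under 20 counts of *Cav1* was common, at 89 of 114 PortalVein cells (78.1%) and 168 of 302 CentralVein cells (55.6%). Most PortalVein and CentralVein cells thus held *Plvap* without reaching that limit for *Cav1*.

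Over both sexes summed, and in male cells, the highest *Plvap* level of all annotations was not endothelial. HSC, the vitamin A storing mesenchymal cells along the sinusoid, held 3192 CPM in 73 cells (pools 3294 male and 1981 female). They were ahead of PBV (2760 CPM, pools 1344 and 3535), CentralVein (2439 CPM, pools 2171 and 2697) and PortalVein (2170 CPM, pools 2122 and 2223). The pools of each neighbour in that order overlapped, and the female HSC pool lay below the female PBV, CentralVein and PortalVein pools. LEC (1821 CPM) and lastSinusoid (1667 CPM) came next, and their highest pools, 2036 and 2087 CPM, lay below both PortalVein pools. A wide gap then led to venSMC (538 CPM), Sinusoid_EC (485 CPM, pools 357 and 513) and the capsular cells cHSC (427 CPM). Fibroblast groups were lower, with 125 CPM in PortalFibroblasts, 26.4 CPM in Wt1_FB and 18.2 CPM in PeriBilFB. SLC held 92.7 CPM. The study assumes that these are second layer cells of central vein walls, perhaps present at portal veins too. Arterial smooth muscle held 19.9 CPM.

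Community cluster #m7c, which held 72 of the 73 annotated HSC and no other cell, had a count of *Plvap* in 71 of 72 cells (98.6%, exact 95% binomial interval 92.5 to 99.96%) and at least 20 counts in 66. The median cell was at 3591 CPM and the highest at 13191 CPM. Summed, the 68 male cells were at 3336 CPM. The 4 female cells were at 676, 1657, 2543 and 3554 CPM, 1981 CPM when summed. The female sum lay below the lowest of the 5 plates with at least 5 HSC, all male (2704 CPM), but 4 cells from 1 plate give little precision. Against the mean of the other mesenchymal clusters, *Plvap* in #m7c was higher by log2 4.18 in male and 3.72 in female cells (0.5 CPM added). The study itself picked *Plvap* as a gene of these cells, and the cluster was drawn from the same counts, so no test was made. The study also showed PLVAP beside RELN by immunofluorescence in HSC of *Pdgfra* reporter mice, and *Plvap* with *Pdgfrb* by in situ hybridization. Using the coarser multilevel cluster #m3 in place of #m7c gave log2 3.52 and 3.29.

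Cluster #m7c carried the markers of its label. *Reln* was at 3627 CPM, *Lrat* (which esterifies retinol) at 1932 CPM and *Hgf* at 653 CPM, with *Pdgfrb* in 69 of 72 cells. The 5 endothelial markers summed to 26.7 CPM in annotated HSC, against 7340 CPM in CentralVein and 8855 CPM in Sinusoid_EC, and to between 9.18 and 98.5 CPM in the other mesenchymal annotations apart from the 6 mesothelial cells. In #m7c, *Ptprb* was at 17.5 CPM (13 cells with a count), *Pecam1* at 7.09 CPM (54 cells), *Kdr* at 1.13 CPM (8 cells), *Tie1* at 0.93 CPM (5 cells) and *Cdh5* at 0.33 CPM (3 cells). The 16 cells with 0 counts of all 5 had at least 1 *Plvap* count in 16 of 16 and at least 20 in 13, at 2864 CPM summed. The 56 cells with a count of any had at least 20 *Plvap* counts in 53, at 3328 CPM summed. *Plvap* counts were thus present with and without endothelial marker counts.

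The level held across plates. In the 5 plates with at least 5 HSC, *Plvap* ran from 2704 to 9698 CPM with a median of 3702 CPM, and the plate with most HSC (47.9% of them) gave the lowest value. Within those plates HSC were above cHSC in 5 of 5 (cHSC 133 to 928 CPM) and above venSMC in 5 of 5 (107 to 1728 CPM). In the 2 plates that also held Sinusoid_EC, HSC were at 3023 and 3702 CPM and Sinusoid_EC between 519 and 1508 CPM. In the single plate with CentralVein cells, HSC were lower, at 3023 CPM against 3247 CPM. Shared plates thus kept HSC above cHSC and venSMC, and 1 plate put them beside the CentralVein cells.

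**Figure D3:**
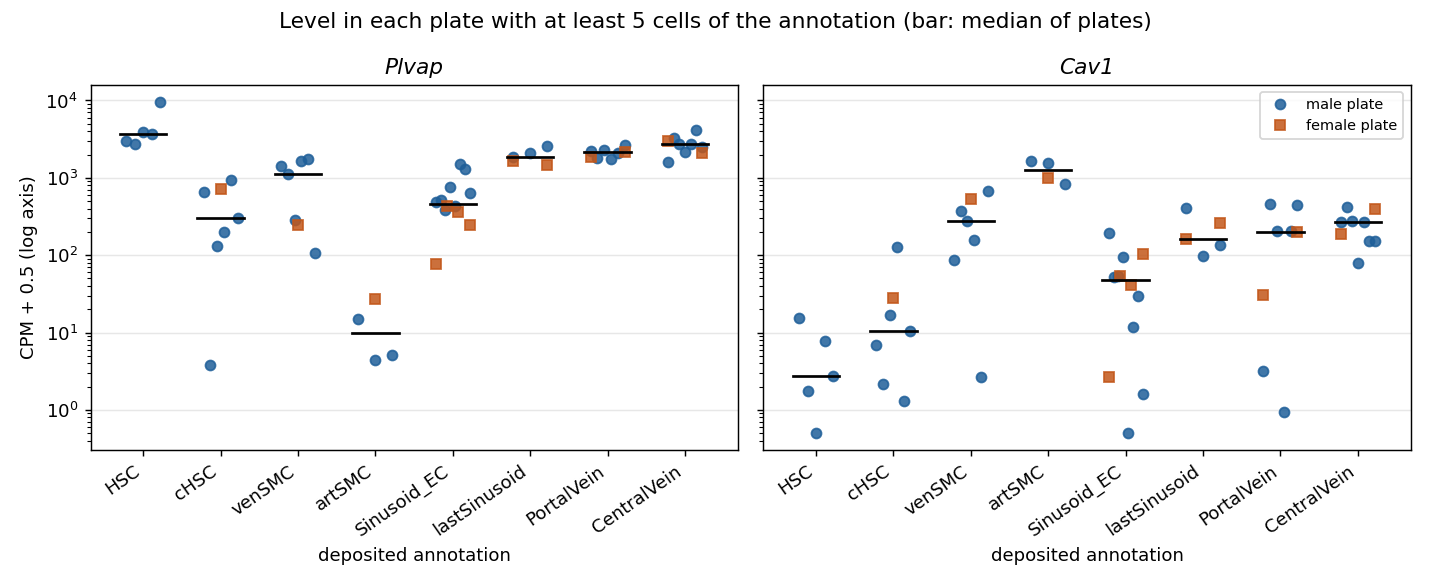
*Plvap* (left) and *Cav1* (right) in each plate with at least 5 cells of an annotation, as CPM + 0.5 on a log axis, with circles for male and squares for female plates and a bar at the median of plates. *Plvap* in HSC lies between 2704 and 9698 CPM in 5 plates while *Cav1* in the same plates is at most 15.1 CPM, and artSMC show the reverse, with *Plvap* at most 26.7 CPM and *Cav1* at least 844 CPM.

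Most HSC held *Plvap* without a caveolin count. Of the 67 annotated HSC with at least 20 *Plvap* counts, 43 (64.2%, interval 51.5 to 75.5%) had no count of either *Cav1* or *Cav2*. Such endothelial cells had neither in 40 of 267 CentralVein (14.98%, interval 10.9 to 19.8%), 25 of 107 PortalVein (23.4%, interval 15.7 to 32.5%), 58 of 278 Sinusoid_EC (20.9%) and 7 of 98 lastSinusoid cells (7.14%). The other mesenchymal groups with at least 20 such cells lay between, with 9 of 22 SLC (40.9%, interval 20.7 to 63.6%, which overlaps that of HSC), 9 of 27 cHSC (33.3%), 46 of 145 PortalFibroblasts (31.7%) and 17 of 60 venSMC (28.3%). The intervals of these groups overlapped that of PortalVein. The share was not particular to HSC, since 25 of 30 Kupffer cells with that many *Plvap* counts (83.3%) had neither caveolin. With the limit of 20 counts, 66 of 73 HSC (90.4%) had *Plvap* without *Cav1*, and 0 of 73 had the pair *Cav1* and *Cavin1*. Cavins were present in the sum, with *Cavin1* at 255 CPM and *Cavin3* at 174 CPM, and a count of *Cavin1* in 50 and of *Cavin3* in 40 of those 67 cells. Their levels were spread widely over the 5 plates, from 2.27 to 646 CPM for *Cavin1* and from 9.06 to 300 CPM for *Cavin3*, and both were lowest in the plate with the highest *Plvap* level (5 HSC). *Gpihbp1* was at 5.80 CPM (6 of the 67 cells with a count) and *Emcn* at 0.39 CPM (2 cells). *Cavin2* was at 28.6 CPM over both sexes (6.72 CPM in male cells and 288 CPM in the 4 female cells), and 1 cell held 77.7% of those counts.

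High *Plvap* levels were reached by few cells of the other mesenchymal groups. At least 1000 CPM was reached by 60 of 73 HSC, 13 of 113 cHSC and 10 of 111 venSMC, and by 246 of 302 CentralVein and 94 of 542 Sinusoid_EC cells. The highest 12 cells held 78.1% of *Plvap* counts in cHSC and 68.1% in venSMC, but the highest 8 of the 73 HSC held 24.6%. The cHSC pools were at 338 CPM (male) and 707 CPM (female), and their plates ran from 3.34 to 928 CPM. The summed *Plvap* level of cHSC and venSMC thus rested mostly on few of their cells. Lower amounts were more common, since at least 20 counts were found in 60 of 111 venSMC, 27 of 113 cHSC and 145 of 463 PortalFibroblasts, against 67 of 73 HSC.

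*Gpihbp1* was ordered differently from the coat genes within the endothelium. It was highest in Sinusoid_EC at 1555 CPM (pools 1269 and 1617) and PortalVein at 1350 CPM (995 and 1744), which overlapped, then 899 CPM in lastSinusoid, 638 CPM in PBV, 568 CPM in CentralVein and 471 CPM in LEC. Plates with at least 5 cells ran from 734 to 1988 CPM in Sinusoid_EC and from 191 to 792 CPM in CentralVein. In Sinusoid_EC, 95.4% of cells had at least 20 counts of *Gpihbp1*, against 51.3% for *Plvap* and 10.5% for *Cav1*. Among the other annotations, over both sexes, Cont had the highest *Gpihbp1* level (403 CPM), with the endothelial marker counts given above.

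*Emcn* had an order of its own. PBV stood at 1826 CPM (pools 1097 and 2226), above lastSinusoid at 751 CPM (727 and 805), which lay above LEC (557 CPM) and CentralVein (518 CPM, pools 457 and 576). Sinusoid_EC and PortalVein did not differ beyond their spread, at 314 CPM (237 and 331) and 311 CPM (269 and 358). Cyc, an immune group of 24 cells, was listed at 79.9 CPM, but 1 cell held 99.3% of those counts. *Emcn* thus separated lastSinusoid from Sinusoid_EC in both pools, as *Plvap* and *Cav1* did.

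Vein and sinusoid were compared as the mean over multilevel clusters #e1 (central vein) and #e2 (portal vein, 114 cells, with the 14 PBV cells) against the mean over the sinusoidal clusters #e3, #e5, #e6 and #e8, within each pool. Cluster #e7, 150 of the 302 CentralVein cells, was left out because the study's annotation places it with the central vein and a table of the study with the sinusoid. In both pools 7 of the 8 genes were higher in the vein clusters, as were 32.5% of the 14972 genes with a mean of at least 1 CPM in endothelial pools. *Gpihbp1* alone was lower (1 of 8, with 30.4% of all genes lower in both pools). The clusters were drawn from the same cells, so this is a description, and nothing is read from these counts.

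The largest ratio was that of *Cavin3*, at 214 against 3.28 CPM in male and 204 against 10.7 CPM in female cells, log2 5.83 and 4.20. The female sinusoidal mean came mostly from #e5, at 38.95 CPM with 1 of 31 cells at 20 counts or more, while #e3 (6 cells), #e6 and #e8 held 0.74 to 1.87 CPM. *Cav1* was at 333 against 84.0 CPM and 459 against 105 CPM (log2 1.98 and 2.12), and *Cavin1* at 212 against 68.4 CPM and 340 against 95.1 CPM (log2 1.62 and 1.83). These are the genes of the caveolar core and of the cavin that was nearly absent from the sinusoid. *Plvap* was at 2483 against 979 CPM and 2286 against 570 CPM (log2 1.34 and 2.0). Ratios were smaller for *Cavin2* (log2 0.76 and 0.82), *Cav2* (0.54 and 0.65) and *Emcn* (0.28 and 0.76). *Gpihbp1* was at 1140 against 1520 CPM and 717 against 1100 CPM, log2 -0.42 and -0.62. The PBV cells in #e2 bear on *Cav1* and *Emcn*, which they held at 1946 and 1826 CPM against 168 and 311 CPM in the PortalVein cells. Without them, an alternative chosen after seeing the data, the vein clusters were at 218 and 354 CPM of *Cav1* (log2 1.37 and 1.74) and at 494 and 447 CPM of *Emcn* (log2 0.18 and 0.35), and the same 7 genes were higher and *Gpihbp1* lower in both pools.

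The sinusoidal clusters were not alike. *Plvap* was at 1667 CPM in #e6 (lastSinusoid) but at 470, 472 and 546 CPM in #e3, #e5 and #e8, and in each pool #e6 lay above the other 3 (1476 CPM against at most 402 CPM in female cells, 2087 against at most 846 CPM in male cells). *Cavin3* did not follow, with 1.42 CPM in #e6 and 0.36 to 13.7 CPM in the others. Among the vein and sinusoidal clusters it was highest in #e2, at 340 CPM (the LEC cluster #e4 held 471 CPM), and lower in the CentralVein clusters #e1 (72.2 CPM) and #e7 (42.4 CPM). *Gpihbp1* also set portal and central veins apart, at 1262 CPM in #e2 against 580 CPM in #e1 and 547 CPM in #e7, in both pools (959 and 1618 CPM against 475 to 661 CPM).

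In 8 plates at least 5 vein and 5 sinusoidal cells lay side by side. The plate ratios sum the cells of each kind, unlike the mean over clusters used for the pools. *Cavin2* was higher in the vein cells in 8 of 8 plates, by log2 0.08 to 1.13, and *Gpihbp1* was lower in 8 of 8, by log2 -1.16 to -0.13. *Plvap* and *Cavin3* were higher in 7 of 8, with plate medians of log2 1.49 and 5.95, *Cav1*, *Cav2* and *Cavin1* in 6 of 8 and *Emcn* in 4 of 8. Only *Cavin2* was thus higher in every plate. Vein cells here include PBV, and without those *Gpihbp1* was lower in 7 of 8 plates, *Cav1* and *Cav2* were higher in 5 of 8, and the plate counts of the other members did not change. The lowest *Cav1* and *Cavin1* ratios came from plates with 6 and 8 vein cells. *Emcn* had a plate median of log2 0.04 and was higher in vein cells in 4 of the 8 plates. The lastSinusoid cells, high in *Emcn*, were 59 of 70 sinusoidal cells in 1 plate and 7 of 238 in another. The part of this mix in the plate ratios was not tested.

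**Figure D4:**
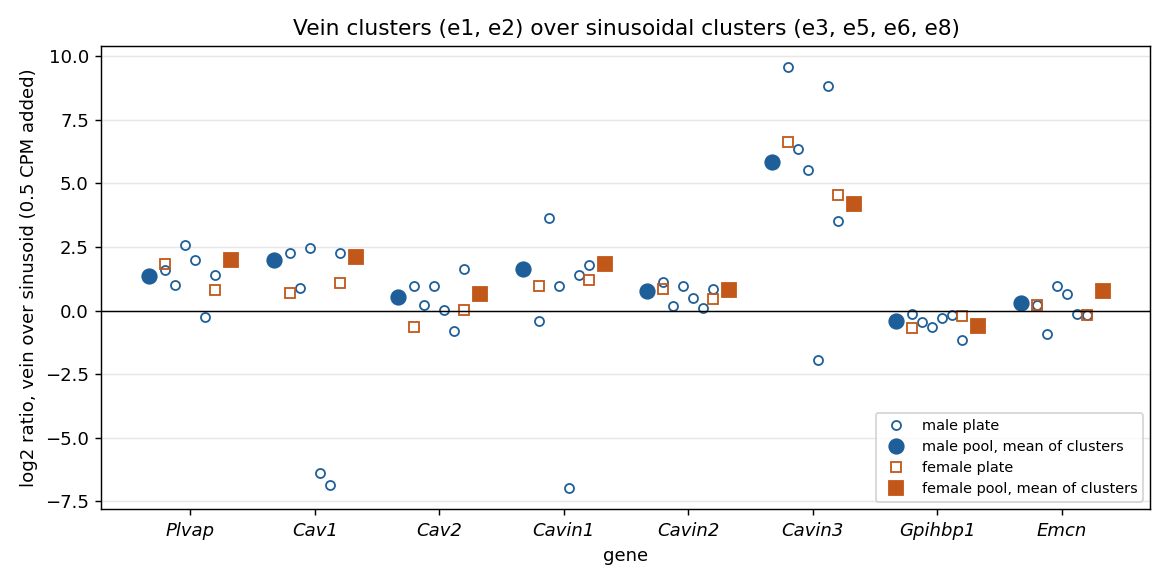
The y axis is the log2 ratio of vein to sinusoidal cells with 0.5 CPM added, filled symbols are the mean of clusters in the male (circle) and female (square) pool, and open symbols are single plates that held both kinds of cell. All plates lie above 0 for *Cavin2* and below 0 for *Gpihbp1*, and the open symbols for *Cav1* and *Cavin1* reach down to log2 -6.85 and -6.99.

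Sex was not used to choose the genes or the clusters, and was tested with edgeR's quasi-likelihood test on the 8 pools, with class as a block. Of 20338 genes 5 passed an adjusted p of 0.05 (0.0246%), 2 higher in female pools (0.00983%) and 3 lower (0.0148%). None of the 8 members passed, and 1 of them had an unadjusted p under 0.05, as did 8.01% of all genes. DESeq2 also called 0 of the 8, with 1 at an unadjusted p under 0.05 (14.8% of all genes by that tool), while calling 556 genes in all. With 4 pairs that are classes rather than animals, a missed threshold does not show that the sexes were alike.

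*Cavin1* was the member with the unadjusted p under 0.05. It was higher in the female pool of all 4 classes (for example 1006 against 377 CPM in mesenchymal cells), log2 0.86 with a standard error of 0.26 and an adjusted p of 0.594 in edgeR. It was higher in female cells in 8 of 8 mesenchymal and 7 of 8 endothelial clusters with both sexes. All female mesenchymal cells came from 1 plate, in which every cell had a *Cavin1* count, against 83.6% of male cells. A *Cavin3* count was likewise found in 100% of female and 80.9% of male mesenchymal cells, and a *Cav1* count in 99.4% and 46.3%. Median depth with spike-ins was 325037 counts in female and 185818 in male mesenchymal cells. The part of that plate and of its depth in the *Cavin1* difference was not tested.

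**Figure D5:**
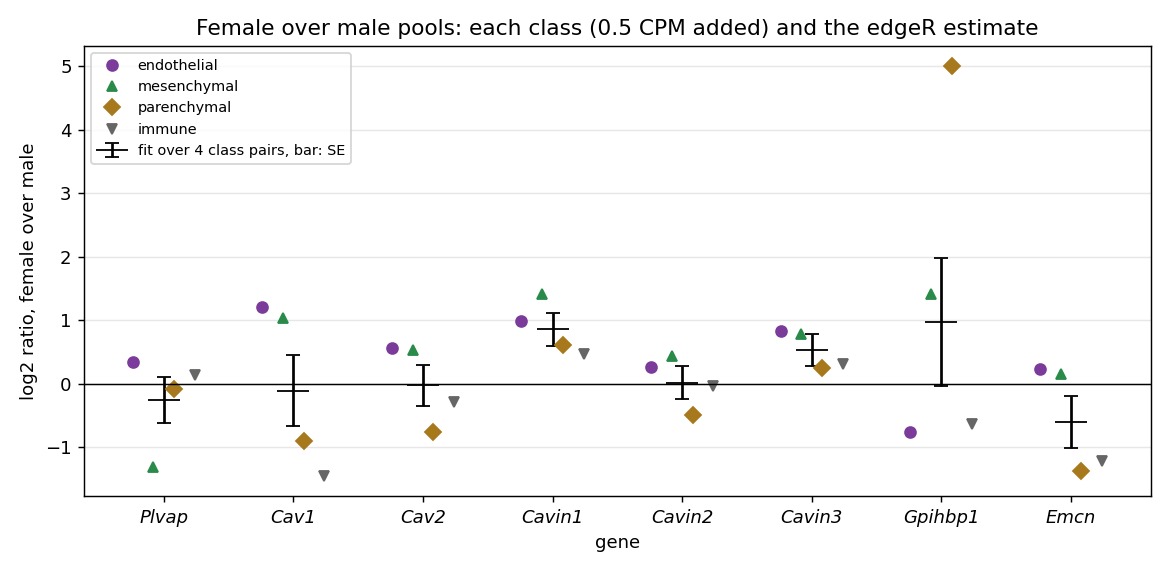
Log2 ratio of female to male pools for each gene, with coloured symbols for the 4 classes (0.5 CPM added) and a black bar with its standard error for the edgeR estimate over the 4 class pairs. *Cavin1* is above 0 in all 4 classes, and the parenchymal *Gpihbp1* symbol, which rests on 1 cell, stands far above the others.

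*Cavin3* followed with log2 0.54 (standard error 0.25, adjusted p = 0.639 in edgeR). *Gpihbp1* had the largest estimate and the largest error, log2 0.97 with a standard error of 1.01 (adjusted p = 0.797 in edgeR), and without the parenchymal pair it was log2 -0.04. Inside the endothelium the female pool was lower for *Gpihbp1* in 8 of 8 clusters, by log2 -1.67 to -0.09. *Plvap* also needed the clusters to be read, since the female endothelial pool was the higher one (1647 against 1298 CPM) while the female cells were lower in 7 of 8 endothelial clusters. The pools of 451 female and 655 male endothelial cells differed in their make-up. Cluster #e3, at 470 CPM of *Plvap* over both sexes, held 6 female and 230 male cells. Cluster #e8, at 546 CPM, went the other way with 120 female and 35 male cells. In lastSinusoid, at 1667 CPM, there were 78 female and 34 male cells. The part of this make-up in the *Plvap* difference was not tested. The other members lay between log2 -0.61 (*Emcn*, adjusted p = 0.703 in edgeR) and 0.02 (*Cavin2*), but no direction can be read from them. Without the class block *Emcn* turned to log2 0.26, *Plvap* to 0.13, *Cav1* to 0.59 and *Cav2* to 0.12, and *Cavin2* turned to -0.94 with cells matched by cluster.

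Other genes of the same pathways were read from 4 lists. Of 13 other genes of the caveolar machinery 12 were measured, 1 of them highest in both endothelial pools (*Ehd3*) and 2 in both mesenchymal pools (*Cav3*, the muscle caveolin, and *Ehd2*, an ATPase that sits at the caveolar neck), where 11.2% and 9.93% of all genes were so placed. The median over the list of the log2 ratio of endothelial cells to the highest other class was -1.29, against -0.69 over all genes. *Ehd2* differed widely between vein and sinusoid, at 251 CPM in vein against 0.82 CPM in sinusoidal clusters of male and 350 against 1.45 CPM of female cells. *Ehd3* ran the other way, at 1771 against 3144 CPM and 1952 against 3560 CPM. Of the 9 list genes measured in the endothelium 6 were higher and 2 lower in vein clusters, with a median log2 ratio of 0.64 against 0.03 over all genes, of which 32.5% were higher and 30.4% lower. These shares of all genes apply to each list below too, and nothing particular to a list is read from its counts.

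Of 5 genes of VEGF input and nitric oxide, 4 were highest in both endothelial pools (the VEGF receptors *Kdr* and *Flt1*, the co-receptor *Nrp1* and the nitric oxide synthase *Nos3*), and 0 were higher and 4 of 5 lower in vein clusters. Of 15 genes of lipolysis and lipid uptake, 2 were highest in endothelial pools (the fatty acid transporter *Cd36* and the lipid chaperone *Fabp4*) and 3 in mesenchymal pools (*Lipg*, *Angptl4* and *Vldlr*). *Lpl*, the lipase that GPIHBP1 binds, was low in the endothelium. It was at 10.3 and 34.5 CPM in endothelial pools against 673 and 585 CPM in mesenchymal pools and 711 and 1503 CPM in immune pools, with 275 CPM in #m7c. Of 7 sialomucins and surface glycoproteins, *Podxl*, *Eng* and *Icam2* were highest in endothelial pools and *Podxl2* and *Cd34* in mesenchymal pools. In the endothelium 6 of 13 measured lipid genes were higher and 6 lower in vein clusters, and 2 of 6 surface glycoproteins were higher and 1 lower. The median log2 ratio of endothelial cells to the highest other class was 3.23 over the VEGF list, -4.06 over the lipid list and -0.51 over the glycoproteins, and that of vein to sinusoidal clusters -0.74, -0.13 and 0.06. For the 8 members these medians were 1.73 and 1.23. Across these lists edgeR called 0 of 38 tested genes between the sexes (0.0246% of all genes), 9 had an unadjusted p under 0.05 (8.01% of all genes), and DESeq2 called 1, *Ehd4* (556 of 20338 genes in all).

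The genes whose levels most resembled each member over the 30 multilevel clusters were ranked by Pearson's r of log2(CPM + 1) among 16592 genes, as a description over clusters that share plates and mice. For *Cav1* they were *Cavin1* (r = 0.88), *Rhoj* and *Lmcd1*, and for *Cavin1* *Tgfb1i1* (0.97), *Sspn* and *Afap1*. For *Cavin3* they were *Ehd2* (0.94), *Pdlim3* and *Fhl1*. *Gpihbp1* was most like *Ushbp1* (0.98), *Myct1* and *Arhgef15*, and *Emcn* most like *Myct1* (0.98), *Gm15587* and *Nos3*. *Plvap* had the loosest neighbours, *Eng* (0.87), *Calcrl* and *Fam189a2*, and *Eng*, an endothelial co-receptor of the TGF-beta family, was likewise high in #m7c at 2916 CPM. *Cav2* was nearest to *Plcb4* (0.93), *Tm4sf1* and *Tmem252*, and *Cavin2* to *Fkbp1a* (0.93), *Hspa12b* and *Gm20532*. Between members, r was 0.96 for *Gpihbp1* and *Emcn*, 0.79 for the linked pair *Cav1* and *Cav2*, and -0.30 for *Gpihbp1* and *Cavin3*.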

How the data were processed

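Adult mouse liver cells were profiled by Smart-seq2 in 4 classes and both sexes. The authors deposited 1 table of raw counts per gene and cell (Bowtie2 or Bowtie, Subread featureCounts and Seurat stand in the submitters' processing notes, with GRCm38/mm10 and no versions), after removing shallow, damaged and contaminated cells, and tables of sex, class, annotation and cluster per cell. All 3491 cell columns were mapped to pools, and 0 columns were left unmapped. No doublet caller was run here. The 92 spike-ins were left out.

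Counts were summed per class and sex (8 pools), annotation, multilevel cluster and community cluster, for groups of at least 3 cells, and scaled to CPM. Ratios have 0.5 CPM added. Shares have exact (Clopper-Pearson) 95% binomial intervals. Thinning drew 50000 counts per cell, and 13 shallower cells were left out of thinned shares. Exon lengths came from GENCODE vM21. Sex was tested in edgeR 4.0.16 (quasi-likelihood, TMM, filterByExpr, class as block, Benjamini-Hochberg over all genes, R 4.3.3). The male and the female pool of a class form a pair by design. The test was tried on simulated counts with known changes. DESeq2 1.42.0, other scalings, filters, matched cells and leaving out pools were alternatives. Python 3.11.15 with pandas 2.3.3 did the rest.

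The members and gene lists were chosen with earlier results of these data known. Named are the members, the 3 genes most like each, list genes whose endothelial or HSC level is described, and markers. *Ehd4* was named after its value was seen. The authors' own tests, not used here, took cells as replicates.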

Additional observations from a re-analysis of the deposited data

How the results depend on the processing

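*Plvap* in HSC over the other mesenchymal clusters was log2 3.95 as the mean of both pools, and 3.40 with multilevel cluster #m3 in place of #m7c. It ran from 3.72 to 4.18 with either pool left out. With sums of at least 5 or 10 cells, or HSC without endothelial marker counts, only male cells gave a value. The 7 genes higher in vein clusters were 7 with either pool left out, and 1 when every plate had to show it, an alternative chosen after seeing the data, as were leaving out Cont and #m14c and leaving out the PBV cells of #e2. The gene lower in vein clusters was 1 under each of these alone, but without PBV *Gpihbp1* was lower in 7 of 8 plates, which leaves 0 genes lower in every plate. The genes highest in endothelial pools were 5, and those highest in mesenchymal pools 2 to 3 without a pool pair.

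The 5 genes called between the sexes became 556 in DESeq2, 3 with no replicate block, 1 with cells matched by cluster, and 0 to 5 without a class pair (0 without the endothelial or the immune pair, 1 without the parenchymal pair). The members called stayed at 0 in all of these. The pairing of male and female pools is by class. Without that replicate block, the log2 ratios changed sign to 0.13 for *Plvap*, 0.59 for *Cav1*, 0.12 for *Cav2*, -0.38 for *Gpihbp1* and 0.26 for *Emcn*. *Cav1* also turned to 0.10 in thinned cells, *Cav2* to 0.0056 in DESeq2, 0.0068 with library size only and 0.15 with matched cells, and *Cavin2* to -0.019 without a filter and -0.94 with matched cells. Without 1 class pair at a time the ranges were -0.48 to 0.14 for *Plvap*, -0.60 to 0.39 for *Cav1*, -0.24 to 0.22 for *Cav2*, 0.71 to 0.93 for *Cavin1*, -0.090 to 0.18 for *Cavin2*, 0.41 to 0.62 for *Cavin3*, -0.043 to 1.75 for *Gpihbp1* and -0.96 to -0.33 for *Emcn*. None of these values passed the test, and the cause was not tested. Over all alternatives, 68 values of the main results stayed within their limits and 8 did not. For single genes 138 stayed, 106 moved by more than the spread between pools and 20 changed sign. Depth limits genes at a few counts per cell, such as *Emcn* in mesenchymal cells, and 4 female HSC limit every sex comparison of that type.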
